A study of Homo sapiens with 4 samples.

Results

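The genes that license replication origins, drive the replication fork and supply its nucleotides were examined in MIA PaCa-2 cells given IL-1β. The set holds 46 genes of DNA replication, read on Illumina bead chip arrays. They were chosen for their known roles, but with earlier results of these data known. A gene counted as measured where the array's probe table names it as the only gene of a probe that was detected (detection p under 0.01) on at least 2 of the 4 arrays. By this rule 42 of the 46 genes were measured, with 54 probes of the 13152 that passed in the whole series of 48803. CDC6, GINS1, E2F1 and CLSPN had no probe that passed.

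MIA PaCa-2 is a long-established line of human pancreatic carcinoma cells. The control group held 2 samples of untreated cells, and the other group held 2 samples of the same line kept with IL-1β, an inflammatory cytokine, at 2 ng/ml for 36 h. All cells grew in high-glucose medium with serum, and each sample was read on 1 array. The labels do not say that the samples of a group were separate cultures, so the spread behind each p-value is that of these samples and could be technical alone.

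Between 26.1% and 27.0% of probes were detected per array, and raw intensity averaged 527 and 549 in controls against 482 and 449 with IL-1β. The epithelial keratins KRT8, KRT18 and KRT19 were detected, while KRT7, EPCAM and CDH1 did not pass. The summed level of this list was 15278 to 15945 in controls and 13052 to 14079 with IL-1β. Of the markers of other cell types, CD68 and CD14 of 6 leukocyte genes, COL1A2 of 6 fibroblast genes and CDH5 of 4 endothelial genes passed, and the pan-leukocyte marker PTPRC did not. These sums are in the authors' series matrix values. That of the leukocyte list lay between 3151 and 3381 in controls and between 3763 and 3803 with IL-1β, with CD68 higher by 0.31 ± 0.10 (log2 ± SE). The sum of the fibroblast list lay between 4632 and 4835 in controls and between 3764 and 3813 with IL-1β, and the part of any of these lists in the results below was not tested.

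Replication origins are licensed in G1 phase, when the origin recognition complex with CDC6 and CDT1 loads the MCM2 to MCM7 helicase ring onto DNA. In S phase CDC45 and the GINS complex join the ring, MCM10 helps to fire it, and DNA polymerases α, δ and ε copy the strands. The clamp PCNA and its loader, the RFC complex, also act at the fork. Many of these genes are known targets of E2F transcription factors, and their transcripts are abundant in cells that are about to replicate. An array of bulk RNA gives the mean over all cells, so a larger share of cycling cells and more RNA per cycling cell cannot be told apart.

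Most replication genes read higher after IL-1β, by small amounts. Of the 42 genes, each read by its probe with the highest mean, 36 were higher and 6 lower, where 50.2% of all 8862 genes tested were higher. The median log2 difference of the 42 genes was 0.197, with quartiles of 0.080 and 0.296, against 0.0012 over all genes tested. Both IL-1β arrays lay above both control arrays in 30 of the 42 genes, compared with 26.3% of all genes, and below them in 2, compared with 25.1%. None of the 42 passed an adjusted p of 0.05 in limma, nor did any of the 13152 probes (0%). By an unadjusted p under 0.05 in the same fit, 15 of the 42 were higher, against 9.40% of all genes, and 0 were lower, against 8.36%. These genes are known to be transcribed together, so their counts are not counts of independent events. The set was also chosen with earlier results of these data known. With 2 arrays against 2 the smallest p of an exact permutation test is 0.333.

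**Figure D1:**
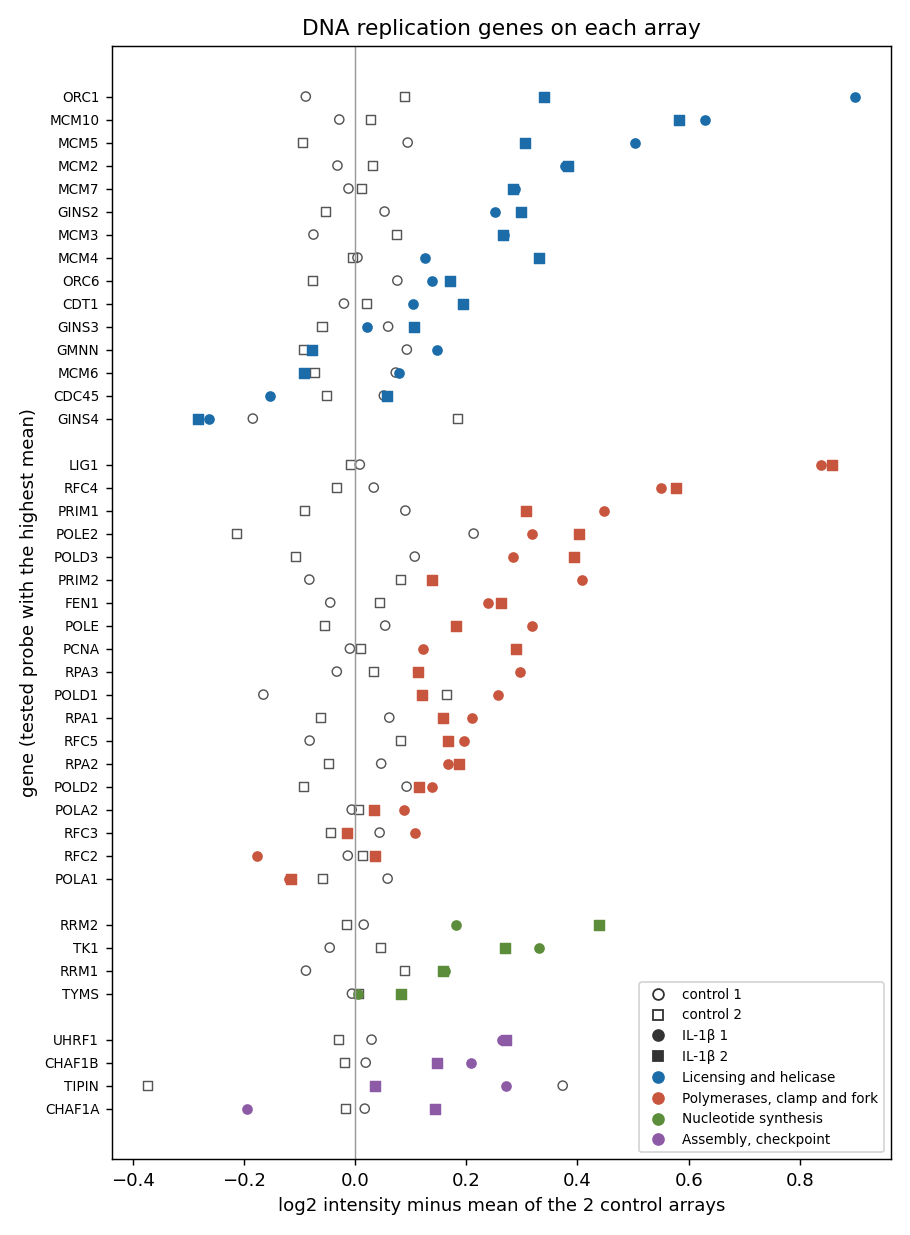
Log2 intensity of each of the 42 genes on each array, less the mean of the control arrays, by role. Open symbols are the control arrays and filled symbols the IL-1β arrays. In 30 genes both filled symbols lie to the right of both open ones, and in GINS4 and POLA1 both lie to the left.

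The size of this shift depended on how the arrays were scaled. With median scaling over all probes 20 of the 42 genes were higher and 22 lower, where 84.0% of all genes were lower, and the median of the 42 was -0.011, while the median of all genes moved to -0.217. Under that scaling 7 of the 42 had both IL-1β arrays above both controls (5.98% of all genes) and 11 had both below (61.3%). In the authors' series matrix values 31 were higher, and 32 were with the factors of their averaged table, while 64.3% and 62.7% of all genes were lower there. Relative to the median of all genes, the median of the replication genes was between 0.138 and 0.223 higher over the reported setting and the 16 alternatives. Median scaling shifts all values of an array by the same amount. Over all probes and over tested probes it therefore gives the same gap, 0.206, by construction. The count of 15 genes higher by unadjusted p was 9 without control replicate 1 (7.12% of all genes), 7 without control replicate 2 (6.88%), 6 without IL-1β replicate 1 (6.10%) and 8 without IL-1β replicate 2 (6.77%), each with fewer arrays in the fit. With an array left out, the groups did not overlap and IL-1β was higher in 34 (38.9% of all genes), 32 (37.5%), 35 (38.1%) and 34 genes (38.5%) in the same order, which fewer arrays make easier. Without control replicate 1 GINS4 was lower by unadjusted p, as were 5.45% of all genes. The count higher by unadjusted p was 8 in the series matrix values (4.93%) and with the averaged-table factors (6.83%). It was also 8 with no filter on dim probes (5.08%), and 9 with the replicate number as a block (7.65%). With median scaling over all probes 3 were higher (1.94%), and CDC45, RFC2, POLA1 and GINS4 were lower (32.3%).

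**Figure D2:**
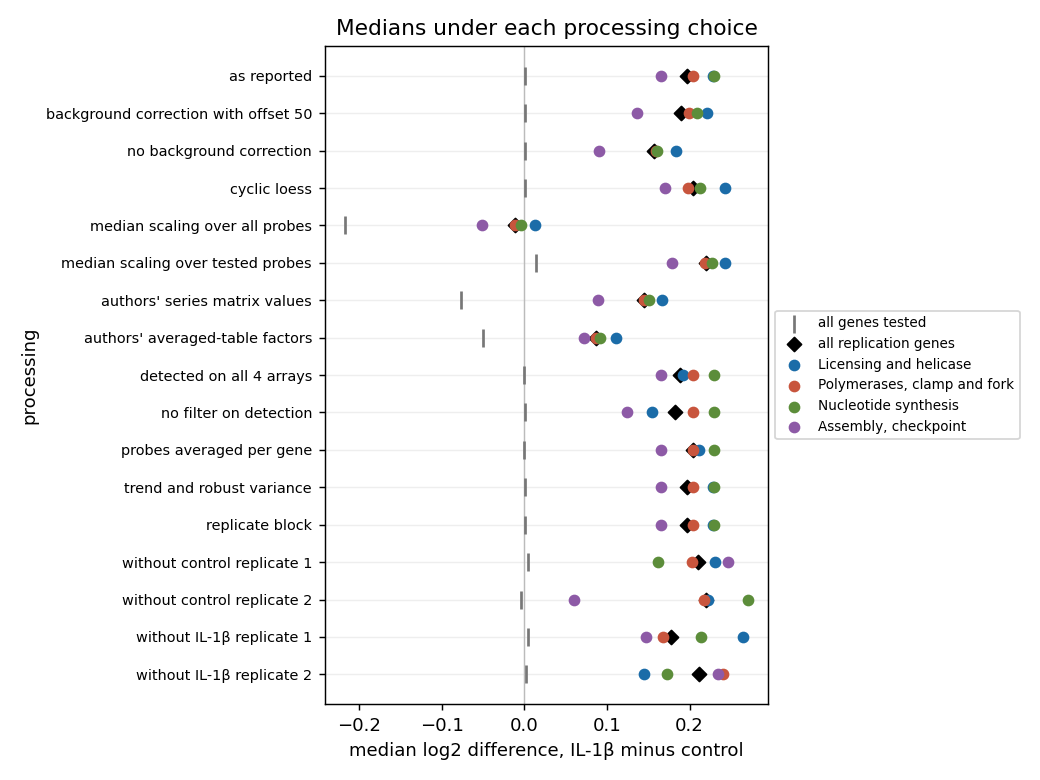
Median log2 difference of all genes tested (grey vertical ticks), of the replication genes (black diamonds) and of each role (circles), under the reported processing and 16 alternatives. The replication genes lie to the right of all genes in every row. With median scaling over all probes all genes sit at -0.217. Median scaling shifts all values of an array by the same amount, so the choice of its probes cannot change this gap.

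Calls by adjusted p in limma changed with the variance model, the background correction, the scaling and the filter. With limma's trend and robust settings 5 of the 42 genes rose past an adjusted p of 0.05, against 2.87% of all genes. These were RFC4 (adjusted p = 0.000814), MCM10 (0.00342), LIG1 (0.0148), MCM7 (0.0363) and MCM2 (0.0381). With no background correction RFC4, MCM10, LIG1 and MCM2 passed, against 2.43% of all genes, and with an offset of 50 only LIG1 did, against 0.372%. With the averaged-table factors RFC4, MCM10 and LIG1 passed (1.90% of all genes), and LIG1 alone did with median scaling over all probes (0.429%) and over genes detected on all 4 arrays (0.315%). No replication gene fell past that threshold in any alternative that kept all 4 arrays. Of all 8862 genes 539 fell past it with median scaling over all probes and 624 with the averaged-table factors. It was 261 with trend and robust settings, 220 with no background correction and 35 with an offset of 50.

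Promoters are shown for the 3 genes with the largest differences among those detected on all 4 arrays and for a pair of helicase subunits that read differently. Windows from 250 bases before to 50 after the start were taken from a table made from RefSeq (GRCh38.p14), in which 40 of the 46 genes were matched. MCM4, MCM5, GINS4, POLD3, RPA2 and RPA3 were not analysed here. The windows were searched on both strands for the E2F-type motifs TTTCGCGC, TTTGGCGC and TTCCCGCC, with overlapping matches kept. A match was present in 22 of the 40 windows (55%), compared with 4.3% of all 27305. Among members tested it was present in 18 of 36 (50%), compared with 7.67% of the 7388 windows of genes tested. The CCAAT box was present in 24 of the 40 (60%). Among members tested it was present in 20 of 36 (55.6%), compared with 37.5% of genes tested. Among tested members, 8 of 13 with an unadjusted p under 0.05 had an E2F-type match and 10 of 23 others did, a difference that was not tested. A match is a run of letters and does not show that a factor binds there. Below, each sequence runs from 120 bases before to 20 after the start, and the capitals mark E2F-type matches.
MCM10, chr10:13161438-13161577, plus strand: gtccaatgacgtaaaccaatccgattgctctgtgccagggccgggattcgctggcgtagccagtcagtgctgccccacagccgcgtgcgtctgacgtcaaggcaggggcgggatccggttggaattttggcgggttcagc
LIG1, chr19:48170325-48170464, minus strand: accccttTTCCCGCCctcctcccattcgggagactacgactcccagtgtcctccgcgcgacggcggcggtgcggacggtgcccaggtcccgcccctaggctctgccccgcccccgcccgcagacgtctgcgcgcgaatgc
RFC4, chr3:186806463-186806602, minus strand: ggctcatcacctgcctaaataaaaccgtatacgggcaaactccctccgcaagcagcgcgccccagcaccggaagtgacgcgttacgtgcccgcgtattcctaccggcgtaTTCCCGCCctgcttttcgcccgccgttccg
MCM2, chr3:127598291-127598430, plus strand: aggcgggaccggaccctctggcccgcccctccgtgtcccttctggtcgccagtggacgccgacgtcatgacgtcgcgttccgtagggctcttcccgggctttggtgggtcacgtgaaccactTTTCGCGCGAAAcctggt
MCM6, chr2:135876424-135876563, minus strand: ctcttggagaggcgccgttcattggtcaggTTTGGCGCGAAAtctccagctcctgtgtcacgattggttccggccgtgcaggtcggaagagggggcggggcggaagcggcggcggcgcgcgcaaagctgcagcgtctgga
MCM2 and MCM6 both hold overlapping matches on opposite strands, and their array values, given next, were unalike. The windows of MCM10 and of ORC1, not shown, hold none of the 3 motifs.

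Of the 17 licensing and helicase genes 15 were measured, 12 of them higher, with a median of 0.229. MCM10, the factor that helps to activate the loaded helicase, had the largest difference of the group among genes detected in both groups. Its brighter probe read 8.40 and 8.46 in controls, and 9.06 and 9.01 after IL-1β (log2 intensity, as in all values by array that follow). The IL-1β arrays lay above the controls, 1.52-fold (95% confidence interval 1.29 to 1.79, as in the folds that follow), with adjusted p = 0.0988 in limma. Its dimmer probe read 6.30 and 6.28 in controls and 7.20 and 7.12 with IL-1β, 1.83-fold higher (1.56 to 2.16, adjusted p = 0.0774).

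The 6 subunits of the MCM ring did not read alike. MCM2 was at 8.77 and 8.83 in controls and at 9.17 and 9.18 with IL-1β, 1.30-fold higher (1.11 to 1.53, adjusted p = 0.149). MCM5 was at 6.79 and 6.60 in controls and at 7.200 and 7.002 with IL-1β, 1.32-fold higher (1.07 to 1.64). MCM7 was at 12.04 and 12.06 against 12.34 and 12.34, 1.22-fold higher (1.04 to 1.43). The dimmer probe of MCM7 differed by 0.29 ± 0.18 (log2 difference ± SE), with overlapping groups. On the brightest tested probe of these 3 subunits the groups did not overlap. In MCM5 the arrays of a group were about as far apart as the groups were at their nearest. MCM3 was at 11.36 and 11.51 against 11.70 and 11.70, 1.20-fold higher (1.01 to 1.43), and its dimmer probe differed by 0.43 ± 0.10 (log2 difference ± SE). MCM4 differed by 0.23 ± 0.11, with 0.12 ± 0.16 on its other probe.

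MCM6 was the exception in the ring, at 11.79 and 11.64 in controls and 11.79 and 11.62 with IL-1β. Its groups overlapped fully, the difference was -0.01 ± 0.11 and the interval of the fold, 0.818 to 1.21, includes the folds of MCM3 and MCM4 and not those of MCM2, MCM5 and MCM7. Whether MCM6 differs from the other subunits was not tested.

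The factors that load the ring or join it at firing were mixed. CDT1, the loading factor that is destroyed in S phase, was at 9.34 and 9.38 in controls and at 9.46 and 9.55 with IL-1β, a difference of 0.15 ± 0.10. GMNN, the inhibitor of CDT1, was at 8.69 and 8.50 against 8.74 and 8.52, with overlapping groups. CDC45, which joins the ring at firing, was at 9.64 and 9.53 against 9.43 and 9.64, also overlapping, a difference of -0.05 ± 0.12. None of these 3 passed by an unadjusted p under 0.05.

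Subunits of GINS, the other partner of the ring at firing, differed in sign. GINS2 was at 9.21 and 9.11 in controls and 9.41 and 9.46 with IL-1β, 1.21-fold higher (1.02 to 1.43). GINS4 was at 7.30 and 7.67 in controls and 7.22 and 7.20 with IL-1β, 1.21-fold lower (0.942 to 1.55 as control over IL-1β), the lowest difference of the set. Its IL-1β arrays lay below both controls, but the control arrays were farther apart than the nearer control was from the IL-1β arrays. GINS3 differed by 0.06 ± 0.10.

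Of the origin recognition complex, ORC1 was detected on the IL-1β arrays alone. It read 5.62 and 5.79 in controls, where it was not above background, and 6.60 and 6.05 with IL-1β. For a bound, each control array was given the higher of its own value and the lowest signal of any probe detected there. The mean of ORC1 with IL-1β was then 1.14-fold that of controls (limma's adjusted p = 0.204 for the values as read). Raw intensities were 191.1 and 214.4 in controls and 234.3 and 190.8 with IL-1β. Before normalization IL-1β replicate 2 was thus not above either control. ORC1 entered the 42 genes through the group where it is higher. Without it, over genes detected on all 4 arrays, 35 of 41 were higher, with a median of 0.189. ORC6 differed by 0.15 ± 0.10 on its brighter probe and by 0.27 ± 0.09 on the other.

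CDC6, which brings the ring to the origin, had raw intensities of 174.0 and 192.7 in controls and 182.0 and 170.5 with IL-1β. Its detection p-values were 0.0751, 0.0514, 0.0303 and 0.0303 on these 4 arrays, so no level can be given. GINS1 had detection p-values between 0.249 and 0.9.

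All 19 polymerase, clamp and fork genes were measured, and 17 were higher, with a median of 0.205. LIG1, the ligase that seals Okazaki fragments, had the largest difference of all 42 genes in the reported fit, with each gene read by its brightest probe. It was at 6.40 and 6.38 in controls and at 7.23 and 7.24 with IL-1β, with each pair of arrays nearly equal. That is 1.80-fold higher (1.54 to 2.11, adjusted p = 0.0774 in limma). The dimmer probe of MCM10 differed slightly more, 1.83-fold. The log2 difference of LIG1 was between 0.37, with no background correction, and 0.90 over the alternatives. With no background correction the differences of RFC4 (0.50) and MCM10 (0.45) were larger. The control arrays of LIG1 were near the detection limit of 0.01, with detection p-values of 0.00527 and 0.00791. FEN1, the nuclease that trims the fragments before LIG1 acts, was at 9.91 and 10.00 against 10.20 and 10.22, 1.19-fold higher (1.01 to 1.40). Its dimmer probe differed by 0.42 ± 0.10.

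RFC4 stood out among the clamp loader subunits. Its brighter probe read 9.93 and 9.87 in controls and 10.45 and 10.48 with IL-1β, 1.48-fold higher (1.26 to 1.74, adjusted p = 0.104 in limma). Its other probe read 9.72 and 9.81 against 10.09 and 10.06, 1.24-fold higher (1.05 to 1.46). RFC2 was at 8.56 and 8.59 in controls and at 8.40 and 8.61 with IL-1β, with overlap and a difference of -0.07 ± 0.11, and its dimmer probe differed by -0.28 ± 0.17. RFC3 and RFC5 differed by 0.05 ± 0.10 and 0.18 ± 0.10. PCNA, the clamp these subunits load, was at 9.91 and 9.93 in controls and at 10.04 and 10.21 with IL-1β, 1.15-fold higher (0.963 to 1.38) with no overlap.

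In the polymerase α and primase complex, which lays the primers, the primase subunits had larger differences than the polymerase subunits. PRIM1, the catalytic primase subunit, was at 7.92 and 7.74 in controls and at 8.28 and 8.13 with IL-1β, 1.30-fold higher (1.07 to 1.58), and PRIM2 differed by 0.27 ± 0.13. POLA1, the catalytic subunit of polymerase α, was at 7.64 and 7.52 in controls and at 7.46 and 7.47 with IL-1β, 1.08-fold lower (0.916 to 1.28 as control over IL-1β). Both IL-1β arrays of POLA1 lay below both controls, by less than the controls differ from each other. POLA2 differed by 0.06 ± 0.09, with no overlap. The difference between these subunits was not tested.

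The 5 subunits of the replicative polymerases δ and ε among the 46 genes were higher, by differences between 0.13 and 0.36. Other subunits of these enzymes, named after their values were seen, were not: POLD4 differed by -0.13 ± 0.10 and POLE3 by -0.12 ± 0.09, both with no overlap, and POLE4 by 0.03 ± 0.10. POLD3 was at 6.57 and 6.36 in controls and at 6.75 and 6.86 with IL-1β, 1.26-fold higher (1.03 to 1.55), the only one of them with an unadjusted p under 0.05. POLE2 differed by 0.36 ± 0.16, the catalytic subunit POLE by 0.25 ± 0.11, and POLD1 and POLD2 by 0.19 ± 0.14 and 0.13 ± 0.11. The subunits of RPA, which coats unwound DNA, differed by nearly the same amount, 0.18 ± 0.10 for RPA1, 0.18 ± 0.10 for RPA2 and 0.20 ± 0.11 for RPA3, each with no overlap between groups and none past an unadjusted p of 0.05.

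**Figure D3:**
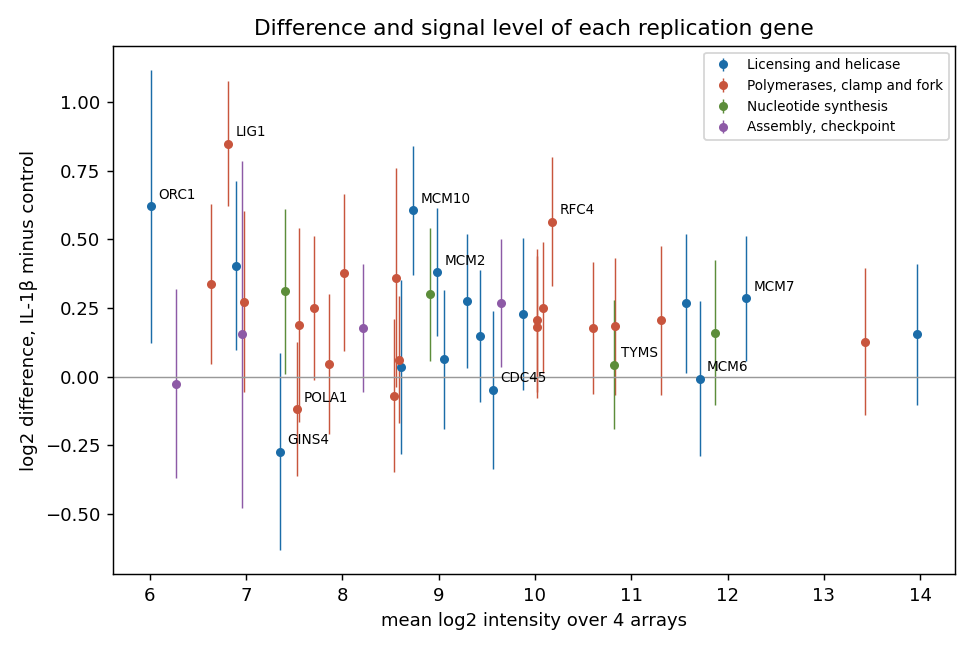
Log2 difference of each of the 42 genes (points, with the 95% confidence interval) against its mean log2 intensity over the 4 arrays, coloured by role. LIG1 at 0.85, MCM10 at 0.61 and RFC4 at 0.56 lie at different intensities, with intervals that do not reach 0.

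Higher values were found at all signal levels. Among genes with a mean log2 intensity below 8, 10 of 13 were higher, with a median difference of 0.25. It was 13 of 15 with a median of 0.23 between 8 and 10, and 13 of 14 with a median of 0.18 above 10. The medians of all genes in these bins were 0.0055, 0.0016 and -0.0015. Of the 12 genes with more than 1 tested probe, all 12 had probes of the same sign, and 47 of the 54 probes were higher.

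The 4 nucleotide synthesis genes were all higher, with a median of 0.230. TK1, the thymidine kinase of dividing cells, was at 8.71 and 8.80 in controls and at 9.09 and 9.02 with IL-1β, 1.23-fold higher (1.04 to 1.46). RRM2, the cell cycle-regulated subunit of ribonucleotide reductase, was at 7.27 and 7.23 against 7.43 and 7.69, 1.24-fold higher (1.01 to 1.53), with the IL-1β arrays apart from each other. RRM1, the large subunit of that enzyme, was at 11.70 and 11.88 against 11.95 and 11.95, a difference of 0.16 ± 0.11. TYMS, the thymidylate synthase, was at 10.79 and 10.80 in controls and at 10.80 and 10.88 with IL-1β, 1.03-fold (0.876 to 1.21). The sign of TYMS turned in both sets of the authors' scaling and with median scaling over all probes.

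Of 6 genes of chromatin assembly, the replication checkpoint and E2F, 4 were measured. UHRF1, which recruits the maintenance DNA methyltransferase behind the fork, was at 9.54 and 9.48 in controls and at 9.77 and 9.78 with IL-1β, 1.20-fold higher (1.03 to 1.41). CHAF1B, a subunit of the histone chaperone CAF-1, was at 8.14 and 8.10 against 8.33 and 8.27, a difference of 0.18 ± 0.09. Its partner CHAF1A was at 6.30 and 6.26 against 6.09 and 6.42, with the IL-1β arrays on either side of the controls. TIPIN, a fork protection factor, had control arrays far apart, at 7.25 and 6.50, and IL-1β arrays at 7.15 and 6.91 between them.

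E2F1, a transcription factor of many of the genes above, was not detected, with raw intensities of 152.6 and 161.0 in controls and 161.0 and 146.9 with IL-1β and detection p-values between 0.369 and 0.647. The probes of CLSPN, which relays the checkpoint signal, were not detected either. With all 46 genes read, dim ones included, 39 were higher, with a median of 0.183.

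The authors' deposited score table lists 6 of these genes, all with a score above 0, where 225 of its 1440 scores are above 0. The smallest size of any score in it is 13.0, and the array's probe table names 18665 genes. In the authors' deposited table RFC4 has a score of 128, MCM10 has 54.2 and 22.7, LIG1 has 23.6, MCM7 has 21.1, MCM3 has 20.2 and FEN1 has 13.1. No source used here gives the formula of the score, so it is printed as deposited. In the authors' deposited table of averages 7 probes of the same 6 genes appear, each with a higher mean with IL-1β, from 1.12-fold for MCM7 to 1.32-fold for MCM10. That table lists 1464 probes, of which 228 are higher with IL-1β.

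Other genes of the pathway that were not among the 46 were read from 4 lists, also chosen with earlier results of these data known. Of 11 measured origin genes 9 were higher, with a median of 0.178, and 3 had an unadjusted p under 0.05, all higher, against 9.40% of all genes higher. CDC7, the kinase that fires licensed origins, was at 6.51 and 6.39 in controls and at 7.38 and 6.99 with IL-1β, 1.67-fold higher (1.28 to 2.17, adjusted p = 0.119 in limma). DONSON, which takes part in helicase assembly, was 1.43-fold higher (1.21 to 1.68, adjusted p = 0.112). Of 9 other fork genes 7 were higher, with a median of 0.146, and the nuclease DNA2 and the loader subunit CHTF18 differed by 0.40 ± 0.13 and 0.38 ± 0.14.

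Of 19 other checkpoint and G1 to S genes 14 were higher, with a median of 0.186, and 6 had an unadjusted p under 0.05, all higher, against 9.40% of all genes. E2F7, an E2F that represses transcription, was not detected on the control arrays and entered through the group where it is higher. Without it 13 of 18 were higher, with a median of 0.157, and 5 had an unadjusted p under 0.05. With the bound used for ORC1, the mean of E2F7 with IL-1β was 1.35-fold that of controls (limma's adjusted p = 0.1 for the values as read). Its log2 difference as read was between 0.21 and 0.68 over the alternatives that held it. RBL1, a pocket protein that binds E2F, differed by -0.40 ± 0.30 and was detected on 1 array of each group. Of 10 other nucleotide genes 4 were higher, with a median of -0.0076. With probes averaged per gene 7 of them were higher, with a median of 0.042. DTYMK, which phosphorylates thymidylate, differed by 0.23 ± 0.12 and NME1, a nucleoside diphosphate kinase, by -0.20 ± 0.09.

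Genes of mitosis, the later stage of the cell cycle, are given beside these, from a list chosen with the same results known. Of 24 measured 21 were higher, with a median of 0.289, and 15 had an unadjusted p under 0.05, all higher, against 9.40% of all genes. Whether mitotic and replication genes differ in size was not tested.

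**Figure D4:**
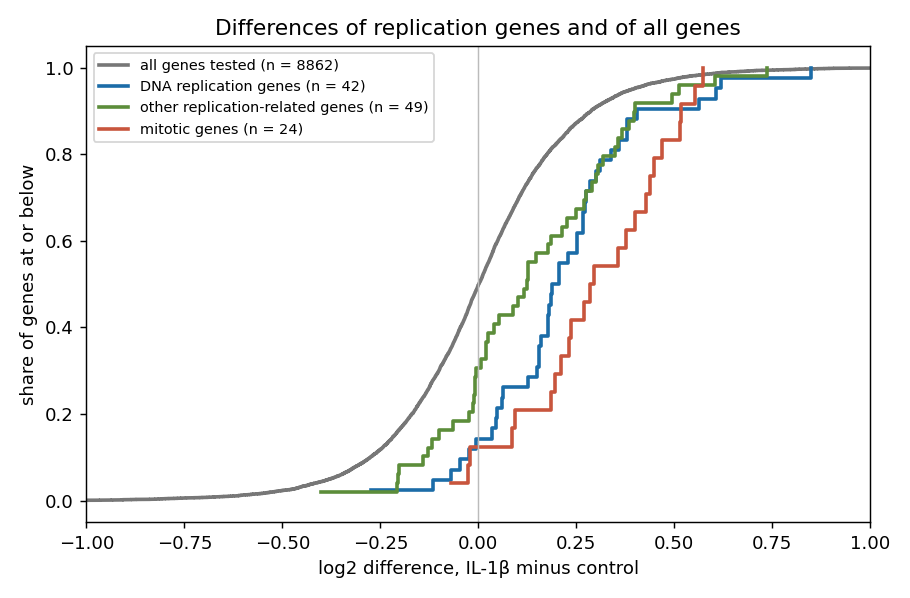
Cumulative share of genes by log2 difference for all 8862 genes tested, the 42 replication genes, 49 other replication-related genes and 24 mitotic genes, with differences beyond 1 in either direction left out of view. The curve of the replication genes crosses 0 at 6 of 42 and its median is 0.197, while all genes are centred on 0.0012.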

How the data were processed

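RNA of 2 untreated and 2 IL-1β-treated samples was read on Illumina WG-6 v3 bead chips. For every array the deposited raw file gives linear intensities, not background subtracted, and detection p-values, per the file headers. Read from the values, the authors' deposited matrix intensities are the raw ones less a constant and times a factor for each array, and their averages use a factor alone. The authors' deposited score per gene has no stated formula. No source used here names the scanner software.

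Intensities were background corrected and quantile normalized to log2 with neqc (offset 16) of limma 3.58.1 in R 4.3.3, and groups were compared with lmFit and eBayes, two-sided, with Benjamini-Hochberg adjustment over 13152 probes. Intervals on folds are 95% limits from this fit. The number of arrays limits the precision, with a median SE of 0.111 on the log2 scale. The probe table names 1 gene for 27578 probes and several for 13, and 21212 are not listed there. The fit was tested on simulated data.

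The members and lists were chosen with earlier results of these data known. Values by array are given for members with an unadjusted p under 0.05 (or the 4 largest differences of a role with fewer), members below 0, and 9 genes fixed by name, and for the 2 largest differences of each other list. Alternatives changed the background correction, scaling, filter, probe averaging, variance model and replicate block, or left out 1 array.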

Additional observations from a re-analysis of the deposited data

How the results depend on the processing

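All 15 members with an unadjusted p under 0.05, and 17 of the 28 named members, kept their sign under the 16 alternatives. ORC1 is among them and was held by 15 of these. The 15 members were picked from the same arrays, so their signs are no separate evidence. At their lowest over the alternatives GINS2 was at 0.013, FEN1 at 0.017 and UHRF1 at 0.029. The count of members past an adjusted p of 0.05 in limma, 0 as reported, was 5 with trend and robust settings, 4 with no background correction, 3 with the averaged-table factors, and 1 each with an offset of 50, median scaling over all probes and detection on all 4 arrays. Those members were all higher, and are counted as genes. Of all probes 339, 293, 239, 46, 58 and 37 passed and were higher, in the same order. The count over all probes in both directions was then 728, 624, 1097, 91, 919 and 66, and median scaling over tested probes gave 10. This count was 0 as reported (2437 at an unadjusted p under 0.05) and in the alternatives not named. With median scaling over all probes 7 members were higher with no overlap (5.98% of all genes) and 11 lower (61.3%), and the medians were -0.011 for all members, 0.013 for licensing, -0.012 for fork, -0.0039 for nucleotide and -0.052 for assembly and checkpoint genes. These medians, in the same order without the last, were 0.145, 0.167, 0.144 and 0.151 in the series matrix values and 0.0873, 0.111, 0.0872 and 0.0911 with the averaged-table factors. With no background correction those of all members, fork and nucleotide genes were 0.157, 0.159 and 0.161, and with no filter that of licensing genes was 0.155.

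When each array was left out in turn the median lay between 0.177 and 0.220 for all members, 0.145 and 0.265 for licensing, 0.168 and 0.240 for fork, 0.162 and 0.271 for nucleotide and 0.061 and 0.247 for assembly and checkpoint genes, with 32 to 35 members higher without overlap, which fewer arrays make easier (37.5% to 38.9% of all genes). Signs turned for genes near 0. With median scaling over all probes RRM1 was at -0.059, TYMS at -0.16, CHAF1B at -0.059, TIPIN at -0.045, CDT1 at -0.11, GMNN at -0.20, PCNA at -0.030 and DTYMK at -0.021. TYMS and GMNN were at -0.0042 and -0.060 in the series matrix values and at -0.048 and -0.045 with the averaged-table factors, where CHAF1A was at 0.050, and at 0.049 with median scaling over tested probes. With each array left out in turn the values lay as follows: MCM6 between -0.092 and 0.080, CDC45 between -0.15 and 0.057, RFC2 between -0.18 and 0.038, CHAF1A between -0.20 and 0.15, RBL1 between -0.86 and 0.048, TIPIN between -0.22 and 0.52 and GMNN between -0.079 and 0.15. The causes of these turns were not tested.

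The replicate numbers are shared by the groups, but the labels do not pair them and same-numbered deviations correlated at -0.087. With the replicate block 0 members passed an adjusted p of 0.05 in limma, and 9 in place of 15 had an unadjusted p under 0.05, with 1013 probes higher and 1015 lower by that measure.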
